A study of Mus musculus with 6 samples.

Results

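Accessible sites at the ends of long non-coding RNA (lncRNA) genes that lie away from protein-coding genes were examined in CGR8 mouse embryonic stem cells. Peaks of 6 ATAC-seq lists were merged into 64018 regions on chromosomes 1 to 19 of mm10, joining peaks that share 1 bp or more. A region was taken when its centre lay within 1 kb of the annotated start or end of a lncRNA gene and more than 10 kb from every protein-coding gene, from start to end. In all, 1271 regions met this rule, or 1.99% of all regions, and they lay nearest to the ends of 1131 lncRNA genes. A list held a region when it had a peak in it, and regions over 10 kb from coding genes that were not at a lncRNA end, 15698 in number, are called other intergenic regions.

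ATAC-seq finds open chromatin, since the Tn5 transposase inserts adapters mainly where DNA is accessible. The 6 lists carried the names mito, LM and eG1-1 in the labels, with 2 replicates each. The labels do not spell these names out. Since the series title speaks of mitotic exit, they are taken here in the order mito, LM, eG1-1, from mitosis to early G1, and peaks of either LM list are named Telo. All 3 groups shared the same line and culture: untreated CGR8 cells (the design text names a Cdt1-MD derivative), grown in N2B27 medium with 3 µM CHIR99021 (a GSK3 inhibitor), 1 µM PD184352 (a MEK inhibitor) and leukemia inhibitory factor. How cells of each stage were obtained is not given in the labels. Whether the replicates were separate cultures is not stated either, and a p-value here measures only the spread between lists, which may be technical.

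The lists differed in length, from 20639 peaks in LM replicate 2 to 48396 in eG1-1 replicate 2, and their read depth is unknown. A missing peak therefore means only that none was called. Of 10 marker genes of embryonic stem cells, such as Pou5f1 and Nanog, 4 to 9 had a peak within 1 kb of a gene end in each list, against 1 to 3 of 6 fibroblast markers, 2 to 4 of 4 neural markers and 0 to 1 of 4 endoderm markers. Each list shared between 50.2% and 81.6% of its lncRNA-end regions with the other replicate of its group.

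A lncRNA is a transcript without a long reading frame, usually made by RNA polymerase II from a promoter that is open in the cells that use it. Such genes include hosts of small nucleolar RNAs, whose introns are processed into guides for RNA modification, hosts of microRNAs, imprinted transcripts, and the Platr genes (pluripotency-associated transcripts), which were named for their expression in embryonic stem cells. During mitosis most transcription stops and many transcription factors leave the chromosomes, while many promoters stay accessible to enzymes. Most genes described here have only a number in place of a name, Gm for 975 of the 1271 regions, Rik for 205 and LOC for 25, and no role is given for those.

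Promoter sequences from RefSeq (GRCm38.p6, 250 bases before to 50 after the start) overlapped 468 of the 1271 regions, and 889 of the 1131 lncRNA genes had an entry. The windows shown were picked after their values were seen. They are 3 named host genes (chr5:74092810-74093109 on the plus strand, for Dancr, chr9:88522848-88523147 on the minus strand, for Snhg5, and chr6:30174076-30174375 on the minus strand, for Mirc35hg), and the pluripotency-associated genes Tunar (chr12:105336344-105336643 on the plus strand) and Platr26 (chr2:71719167-71719466 on the plus strand). Capitals mark a GC box (GGGCGG, the site of SP factors) or a CCAAT box (CCAAT, the site of NF-Y) on either strand.
Dancr: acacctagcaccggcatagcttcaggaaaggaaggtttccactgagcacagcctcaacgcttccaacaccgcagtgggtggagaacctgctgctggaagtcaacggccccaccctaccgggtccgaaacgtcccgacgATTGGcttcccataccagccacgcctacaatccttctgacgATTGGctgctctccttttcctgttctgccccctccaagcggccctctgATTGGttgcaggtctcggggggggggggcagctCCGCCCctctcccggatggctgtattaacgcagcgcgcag
Snhg5: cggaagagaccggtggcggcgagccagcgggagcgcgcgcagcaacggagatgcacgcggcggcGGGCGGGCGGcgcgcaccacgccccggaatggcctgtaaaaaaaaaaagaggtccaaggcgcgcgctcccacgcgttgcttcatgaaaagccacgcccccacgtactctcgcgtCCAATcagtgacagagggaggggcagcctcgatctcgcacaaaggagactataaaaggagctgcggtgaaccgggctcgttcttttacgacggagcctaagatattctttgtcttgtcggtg
Mirc35hg: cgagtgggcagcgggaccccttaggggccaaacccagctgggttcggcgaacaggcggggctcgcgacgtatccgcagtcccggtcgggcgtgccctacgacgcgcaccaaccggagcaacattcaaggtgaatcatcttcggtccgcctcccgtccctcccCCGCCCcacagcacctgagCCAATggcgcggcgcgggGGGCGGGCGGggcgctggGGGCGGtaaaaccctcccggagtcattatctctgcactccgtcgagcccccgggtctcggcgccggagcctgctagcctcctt
Tunar: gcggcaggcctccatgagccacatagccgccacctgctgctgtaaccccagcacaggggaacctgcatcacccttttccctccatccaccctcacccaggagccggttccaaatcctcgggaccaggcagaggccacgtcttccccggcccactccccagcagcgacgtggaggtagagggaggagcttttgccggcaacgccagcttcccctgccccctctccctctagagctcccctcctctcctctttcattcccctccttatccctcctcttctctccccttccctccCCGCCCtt
Platr26: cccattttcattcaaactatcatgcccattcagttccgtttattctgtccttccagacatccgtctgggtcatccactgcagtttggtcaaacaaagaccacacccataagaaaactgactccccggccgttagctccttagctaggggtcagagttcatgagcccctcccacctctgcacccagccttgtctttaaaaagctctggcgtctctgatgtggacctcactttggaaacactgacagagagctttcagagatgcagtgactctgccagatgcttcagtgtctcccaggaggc
The window of Dancr held 3 CCAAT boxes and 1 GC box, that of Snhg5 1 CCAAT box and 2 GC boxes, and that of Mirc35hg 1 CCAAT box and 4 GC boxes. Tunar had 1 GC box and Platr26 neither. These windows ran from CpG-rich to CpG-poor: the observed over expected CpG ratio was 1.26 for Snhg5, 0.946 for Mirc35hg, 0.649 for Dancr, 0.421 for Tunar and 0.272 for Platr26.

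A further pair of windows is shown for a region called in eG1-1 and not in mito, at C330024D21Rik (chr5:67463648-67463947 on the plus strand), and for one called in mito and not in eG1-1, at Gm17762 (chr2:18026999-18027298 on the plus strand).
C330024D21Rik: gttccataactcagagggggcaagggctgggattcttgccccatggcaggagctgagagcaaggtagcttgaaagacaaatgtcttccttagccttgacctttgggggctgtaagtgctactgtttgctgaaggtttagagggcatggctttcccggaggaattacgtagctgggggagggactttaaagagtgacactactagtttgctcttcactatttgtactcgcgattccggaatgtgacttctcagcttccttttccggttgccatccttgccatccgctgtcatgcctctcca
Gm17762: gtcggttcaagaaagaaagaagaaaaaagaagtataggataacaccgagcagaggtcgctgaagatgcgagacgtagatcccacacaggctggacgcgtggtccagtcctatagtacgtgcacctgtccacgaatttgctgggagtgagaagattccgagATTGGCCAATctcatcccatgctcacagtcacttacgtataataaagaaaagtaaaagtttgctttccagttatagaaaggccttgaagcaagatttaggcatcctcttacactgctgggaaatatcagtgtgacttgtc
C330024D21Rik had no GC box and no CCAAT box. Gm17762 had 2 CCAAT boxes and no GC box. Their CpG ratios were 0.361 and 0.731.

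Regions crowded at lncRNA ends. Of the sequence over 10 kb from coding genes, which came to 1221 Mb, 2.00% lay within 1 kb of a lncRNA end, and this stretch held 7.49% of the regions found there. Per Mb of sequence there were 66.4 regions within 0.5 kb of a lncRNA end, 37.1 between 0.5 and 1 kb, 29.4 between 1 and 2 kb and 13.2 between 50 and 100 kb. The fall with distance was seen in each of the 6 lists. In the nearest bin the lists had 25.7 and 34.7 regions per Mb for mito, 24.1 and 20.5 for LM, and 31.9 and 51.4 for eG1-1, and at 50 to 100 kb they had 3.78 and 4.97 for mito, 3.53 and 3.63 for LM, and 6.15 and 9.18 for eG1-1. No test was made of this fall, and assembly gaps were not taken out of the sequence length.

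**Figure D1:**
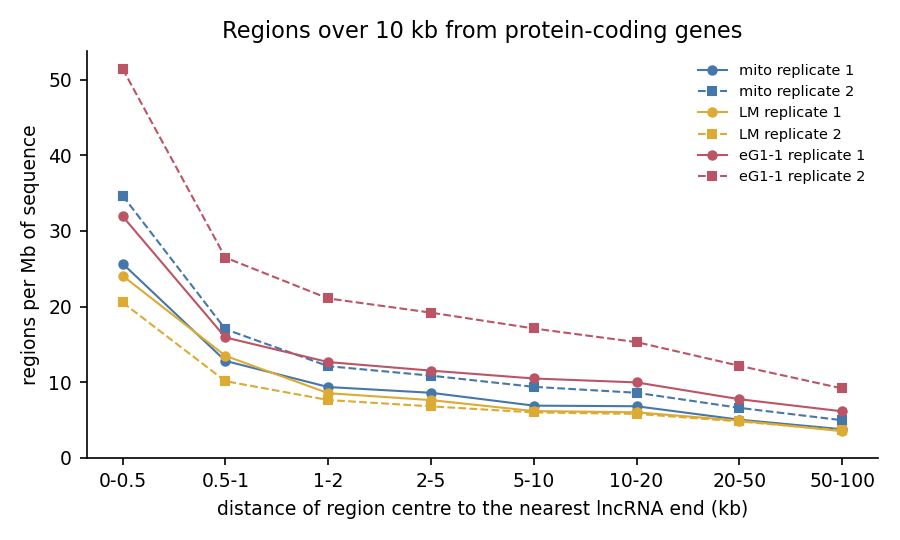
Regions per Mb of sequence over 10 kb from protein-coding genes (vertical axis) by distance of the region centre to the nearest lncRNA end in kb (horizontal axis), 1 line per list. All 6 lists are highest within 0.5 kb, at 20.5 to 51.4 regions per Mb, and fall to 3.53 to 9.18 at 50 to 100 kb.

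Most of the regions with a known strand were at starts. Among the 1271 regions the nearest lncRNA end was a start for 710 and a 3′ end for 282, and for 279 the promoter table gave no strand. Counted from the annotation, 14.9% of 4723 lncRNA starts over 10 kb from coding genes had such a region, against 5.99% of 4956 3′ ends. At starts 132 of 710 regions, or 18.6%, were held by all 6 lists, and at 3′ ends 27 of 282, or 9.57%. The regions at starts had a median width of 536 bp, against 398 bp. A region spans all peaks merged into it, so its width is not independent of how many lists hold it. In each list a larger share of the start regions was held. At starts this was 41.5% and 55.4% for mito, 39.2% and 33.0% for LM, and 49.7% and 77.6% for eG1-1, and at 3′ ends 30.1% and 42.9% for mito, 31.6% and 22.7% for LM, and 44.3% and 70.6% for eG1-1. The difference between starts and 3′ ends lay in the same direction in all 6 lists and was not tested. Where a promoter window overlapped, the centre of the region lay at a median of −14.8 bp from the start, with quartiles of −180 and 118 bp, where negative values are upstream. The regions had a median width of 489 bp, against 426.5 bp for other intergenic regions and 696 bp for regions at protein-coding gene ends. Their median distance to the nearest protein-coding gene was 37.2 kb, and 253 lay over 100 kb away. Chromosome 2 had the most, 116, and chromosome 19 the fewest, 30, and 128 lncRNA genes had more than 1 region. In 16 regions a pair of lncRNA genes ran head to head, and 5 of these were held by all 6 lists, against 193 of all 1271.

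The regions were held unevenly. All 6 lists held 193 of the 1271, or 15.2%, against 10.4% of other intergenic regions, 35.5% of the 13713 regions at protein-coding gene ends and 15.5% of all regions. The share was thus near that of all regions. A single list held 511 regions, or 40.2%, and for 284 of these it was eG1-1 replicate 2, the longest list. For LM replicate 2, the shortest, it was 16. At the edges of the rule, all 6 lists held 10 of 82 regions 900 to 1000 bp from a lncRNA end and 9 of 82 regions 1000 to 1100 bp away, just outside. They held 10 of 38 regions 10 to 11 kb from a coding gene and 5 of 47 that lay 9 to 10 kb away and were left out.

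Across the 3 stages the number of lncRNA-end regions mostly went with the length of the list, though eG1-1 replicate 1 was longer than mito replicate 2 and held fewer. There were 473 and 635 for mito, 461 and 377 for LM, and 588 and 957 for eG1-1. As a share of the 1271, this was 43.6% ± 9.01 for mito, 33.0% ± 4.67 for LM, and 60.8% ± 20.5 for eG1-1 (SD, n = 2 each). The eG1-1 values overlapped those of mito, since eG1-1 replicate 1 with 46.3% lay below mito replicate 2 with 50.0%. The slope over the order mito, LM, eG1-1 was 8.60 percentage points per step. No p is given for it, since the 1271 include regions that entered through 1 list alone, 37 and 74 for mito, 32 and 16 for LM, and 68 and 284 for eG1-1. At equal list length the slope was 0.221, over the 793 lncRNA-end regions that lists cut to 20639 peaks formed. Without eG1-1 replicate 2 it was −0.371, so that its direction rests on that list. At equal list length the slope stayed positive but was smaller, over another set of regions. Within replicate number the eG1-1 share less the mito share was 9.05 points for replicate 1 and 25.3 points for replicate 2. As a share of all regions in the list, lncRNA ends made up 2.02% and 2.17% for mito, 2.00% and 1.90% for LM, and 1.92% and 2.06% for eG1-1, with a slope of −0.0541 points per step (exact two-sided permutation test, p = 0.33). With lists cut to the 20639 strongest peaks this slope was 0.00381, so its sign depends on list length. Within replicate number this share differed by −0.102 and −0.114 points, eG1-1 less mito. 

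The lead of lncRNA ends over other intergenic regions was smaller in both eG1-1 lists than in both mito lists, though entry of regions through single lists bears on it. The share of lncRNA-end regions held less the share of other intergenic regions held was 7.61 and 11.4 percentage points for mito, 8.38 and 2.26 for LM, and −0.386 and 4.51 for eG1-1. Both eG1-1 lists lay below both mito lists, and the LM lists lay apart from each other, with LM replicate 1 among the mito values and LM replicate 2 among the eG1-1 values. The slope was −3.73 points per step. No p is given for it, since both sets of regions were drawn from the same 6 lists. Regions that entered through 1 list alone, 40.2% of lncRNA ends and 47.4% of other intergenic regions, thus bear on this difference too. Through eG1-1 replicate 1 or 2 alone entered 68 and 284 of the 1271 lncRNA ends, and 1527 and 3818 of the 15698 other intergenic regions. Within replicate number the eG1-1 value less the mito value was −7.99 points for replicate 1 and −6.92 points for replicate 2. Among peaks with a score of at least 50 the slope was −4.12, and at equal list length it was −2.98. A slope over 3 even steps with 2 lists each is set by mito and eG1-1 alone, not by LM. Shares at equal list length have another base, since the cut lists formed 793 lncRNA-end regions in place of 1271, and they cannot be set against the shares above. At equal list length lncRNA ends were held at 49.3% and 51.7% for mito, 48.9% and 47.5% for LM, and 47.4% and 54.5% for eG1-1. Other intergenic regions were held at 40.8% and 41.1%, 39.2% and 46.4%, and 47.0% and 47.6% in the same order. At equal length both eG1-1 lists thus had a higher share of other intergenic regions than either mito list.

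**Figure D2:**
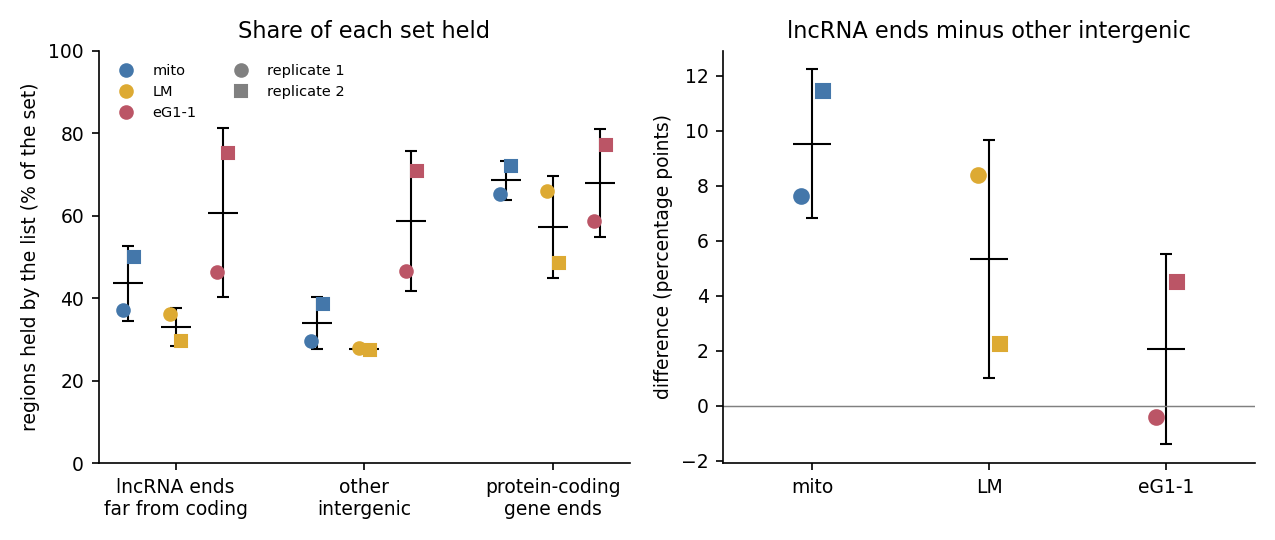
Left, share of regions held by each list in percent, for lncRNA ends far from coding genes, other intergenic regions and protein-coding gene ends. Right, the difference between the first and second set in percentage points. Points are lists, horizontal bars group means and whiskers SD (n = 2). Both eG1-1 lists (−0.386 and 4.51) lie below both mito lists (7.61 and 11.4), and regions that entered through 1 list alone bear on this difference.

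The strength of the peaks was described by the score percentile, the place of a peak's score within its own list, with 100 for the strongest. The median percentile of lncRNA-end peaks was 49.3 and 48.0 for mito, 41.7 and 51.0 for LM, and 51.8 and 50.5 for eG1-1. Other intergenic peaks stood at 41.2 and 42.9 for mito, 39.5 and 43.2 for LM, and 43.8 and 47.3 for eG1-1, and peaks at protein-coding gene ends at 67.3 to 70.2 over the 6 lists. In each list lncRNA-end peaks thus lay between the other sets. The median lncRNA-end peak was 450 and 503 bp wide for mito, 433 and 356 bp for LM, and 337 and 424 bp for eG1-1. No test is given for these values.

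CpG content went with peaks at lncRNA promoters. Over all 5860 RefSeq promoter windows of lncRNAs over 10 kb from coding genes, 9.76% had a peak in some list. The share was 51.9% of 156 CpG-rich windows (observed over expected CpG of at least 0.6 with at least 50% G and C), 19.4% of 794 windows with a ratio of at least 0.4 outside that class, and 6.86% of the 4910 others. All 6 lists held 15.4%, 3.53% and 1.12% of these classes. In CpG-rich windows the lists had peaks in 35.9% and 37.8% for mito, 35.9% and 21.8% for LM, and 26.9% and 43.6% for eG1-1. The eG1-1 values lay on either side of both mito values. In CpG-poor windows the shares were 2.79% and 3.58% for mito, 2.53% and 2.32% for LM, and 3.26% and 5.11% for eG1-1. LM replicate 2 was the lowest list in each class. The median window at a lncRNA-end region had 51.7% G and C and a CpG ratio of 0.359, against 46.0% and 0.195 for windows over 10 kb from coding genes without a peak. Over all protein-coding promoters the ratio was 0.567.

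**Figure D3:**
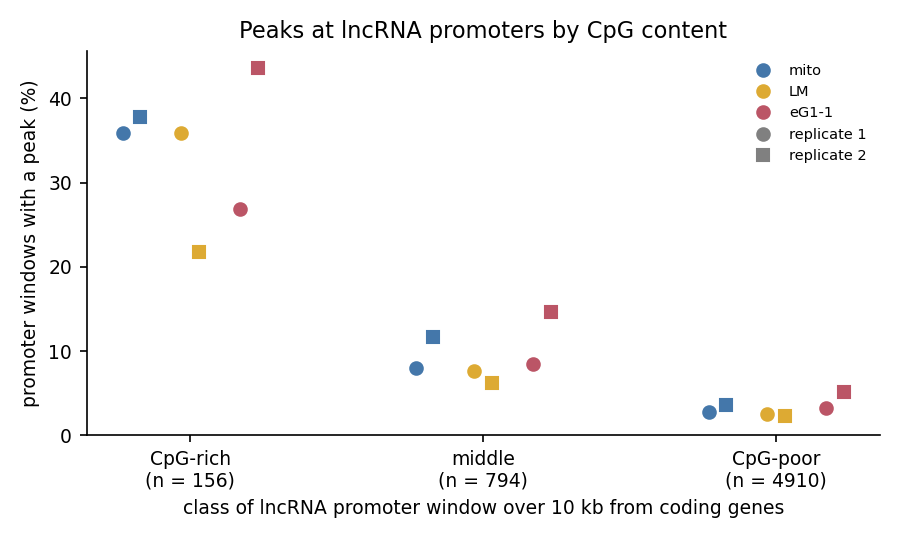
Share of lncRNA promoter windows with a peak in percent (vertical axis) in 3 classes of CpG content (horizontal axis, with the number of windows); points are lists, coloured by group, with circles for replicate 1 and squares for replicate 2. CpG-rich windows lie at 21.8% to 43.6%, above the CpG-poor windows at 2.32% to 5.11% in each list.

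Of 17 motifs searched on both strands, the GC box showed the widest gap between regions held by all 6 lists and by 1 list. It was present in 42 of 113 windows at regions held by all 6 lists (37.2%) and in 22 of 124 at regions held by 1 list (17.7%), against 16.3% of all lncRNA windows and 46.2% of all protein-coding windows. The ETS motif (CCGGAAG, bound by ETS factors) was present in 14.2% and 3.23% of the same sets, against 3.89% of all lncRNA and 11.6% of all protein-coding windows. The CCAAT box stood at 47.8% and 36.3%, against 36.0% and 38.2%. The octamer ATGCAAAT, bound by POU factors such as OCT4, was present in 3.54% and 1.61%, against 1.87% of all lncRNA windows, and the KLF motif GGGNGTGG in 23.0% and 18.5%, against 14.3%. Other motifs ran the other way. The SOX motif CATTGTT was present in 5.31% of windows at regions held by all 6 lists and in 8.87% at regions held by 1 list, the AP-1 motif TGANTCA in 5.31% and 11.3%, and TATAAA in 11.5% and 13.7%. The ESRRB motif TCAAGGTCA had no match in the 113 windows and 2 in the 124. Of the 17 motifs 9 had a larger share in the first set, 6 a smaller one and 2 had no match in either, and none of these differences was tested. The windows at regions held by all 6 lists and by 1 list had a median CpG ratio of 0.390 and 0.345, with 52.3% and 51% G and C. Of all 511 regions held by 1 list, 284 entered through eG1-1 replicate 2. A match of letters is a description only, and windows that are copies of each other are counted each.

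Among the strongest regions held by all 6 lists were 2 lncRNA starts of closely related sequence on chromosome 9. The region at Gm26567, from 88599264 to 88599990, scored 161 and 140 for mito, 215 and 154 for LM, and 205 and 270 for eG1-1. The region at 9330159M07Rik, from 88858491 to 88859341, scored 251 and 280 for mito, 236 and 106 for LM, and 364 and 171 for eG1-1. Both lie between a head-to-head pair, 9430037G07Rik with Gm26567 and 9330159M07Rik with Gm26611, less than 11 kb from the coding genes Trim43a and Trim43c. A related window belonged to Gm24463, whose region from 89066951 to 89067217 had a peak in mito replicate 1 (score 25), LM replicate 1 (43) and eG1-1 replicate 2 (28). The 3 windows, shown for their likeness, lie at chr9:88599390-88599689 on the plus strand, chr9:88858821-88859120 on the minus strand and chr9:89066744-89067043 on the plus strand.
Gm26567: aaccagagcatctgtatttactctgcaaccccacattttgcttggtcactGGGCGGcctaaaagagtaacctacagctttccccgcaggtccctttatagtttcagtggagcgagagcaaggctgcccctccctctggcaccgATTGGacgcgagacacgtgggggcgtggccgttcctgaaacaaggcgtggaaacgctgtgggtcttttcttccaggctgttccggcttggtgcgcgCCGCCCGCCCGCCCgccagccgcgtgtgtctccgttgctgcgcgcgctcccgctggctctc
9330159M07Rik: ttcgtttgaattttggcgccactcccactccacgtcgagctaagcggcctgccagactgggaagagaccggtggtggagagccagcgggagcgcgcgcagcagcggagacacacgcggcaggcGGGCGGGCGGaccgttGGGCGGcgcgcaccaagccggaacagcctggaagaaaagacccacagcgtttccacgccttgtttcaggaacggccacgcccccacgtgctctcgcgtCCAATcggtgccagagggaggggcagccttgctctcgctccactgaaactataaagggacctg
Gm24463: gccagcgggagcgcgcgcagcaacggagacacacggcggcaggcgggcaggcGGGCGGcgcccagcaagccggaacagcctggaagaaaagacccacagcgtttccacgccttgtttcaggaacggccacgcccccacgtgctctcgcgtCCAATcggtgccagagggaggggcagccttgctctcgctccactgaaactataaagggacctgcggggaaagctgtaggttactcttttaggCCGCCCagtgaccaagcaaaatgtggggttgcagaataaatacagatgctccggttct
Gm26567 and Gm24463 were identical at 97.3% of 298 aligned positions once 1 of them was turned round, and Gm26567 and 9330159M07Rik at 95.1% of 224 positions. The window of Snhg5, which lies near them on chromosome 9, aligned to the 3 at 76.8% to 77.9% identity. How reads that match several copies were placed is not given in the sources used here, so the scores of these regions may be split or shared among copies. In all, 16 of the 468 windows had a copy of at least 90% identity over at least 200 bp elsewhere in the promoter table. Of the 16, 9 belonged to regions held by all 6 lists, as did 113 of the 468, and this was not tested.

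The other regions among the 10 with the highest mean score percentile in all 6 lists were led by Gm40987 on chromosome 13, from 65990770 to 65991663. It scored 449 and 758 for mito, 428 and 499 for LM, and 689 and 946 for eG1-1, at the 99.6th to 99.9th percentile of each list. Gm40034 on chromosome 2, from 181917289 to 181918794, scored 383 and 450 for mito, 321 and 511 for LM, and 375 and 531 for eG1-1. D130051D11Rik on chromosome 15, whose region from 85634352 to 85635272 lies 53.0 kb from Wnt7b, scored 241 and 253 for mito, 492 and 291 for LM, and 454 and 425 for eG1-1. The LM and eG1-1 scores of D130051D11Rik were all above its mito scores, but scores of different lists are not on a common scale. LOC115490388, Gm40988, A630089N07Rik, Gm29638 and Gm10505 made up the rest, with scores of 108 to 579. The window of A630089N07Rik was among those with a copy elsewhere. The regions at Gm40034 and Gm40988 had no overlapping promoter window, so they were not searched for copies.

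Of 22 lncRNAs that host small nucleolar RNAs, 5 had an end over 10 kb from coding genes, and all 5 of these had a region, 2 of them in all 6 lists. For scale, the regions named 1131 lncRNA genes, set against 7112 with an end over 10 kb from coding genes, a ratio of 15.9%. No list was tested against this share. Dancr, which hosts a small nucleolar RNA and is known for holding back differentiation of progenitor cells, had its region on chromosome 5 from 74092636 to 74093244, over the start and 24.5 kb from Usp46. It scored 125 and 200 for mito, 192 and 108 for LM, and 239 and 357 for eG1-1. Both eG1-1 scores were above all 4 others, at percentiles of 98.0 and 98.6, against 95.2 and 87.3 in LM and 87.4 and 95.5 in mito. Snhg17 on chromosome 2, from 158361120 to 158362300, was also held by all 6 lists, with 108 and 127 for mito, 55 and 113 for LM, and 68 and 108 for eG1-1. Snhg5 on chromosome 9, from 88522792 to 88523494, had scores of 72 and 96 for mito, 67 in LM replicate 1 and 76 and 40 in eG1-1, with no peak in LM replicate 2. Snhg11 (5 lists, no peak in mito replicate 1) scored 29 to 64. Snhg20 scored 33 and 48 in mito and 30 and 38 in eG1-1, with no peak in LM. A second region, at the 3′ end of Snhg17, had a peak in eG1-1 replicate 1 alone (score 44).

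Of 20 pluripotency-associated lncRNAs, 16 had an end over 10 kb from coding genes and 8 had a region. Tunar, a lncRNA needed for the pluripotent state and for neural differentiation in mouse cells, had its region on chromosome 12 from 105336243 to 105337024, over the start. It scored 90 and 137 for mito, 172 and 93 for LM, and 69 and 121 for eG1-1. Platr26 on chromosome 2, from 71718626 to 71719886, scored 109 and 164 for mito, 113 and 107 for LM, and 111 and 143 for eG1-1, and its percentile lay between 83.3 and 92.2 in these lists. Platr4 (51 to 137) and Platr22 (30 to 125) were the other members held by all 6 lists. Platr22 stood at percentiles of 87.4 and 74.5 for mito, 67.3 and 27.8 for LM, and 22.2 and 69.8 for eG1-1, and the replicates of LM and eG1-1 lay far apart. Platr27 had no peak in mito replicate 1 and LM replicate 2 and scored 58 to 134 elsewhere, and Platr10 lacked a peak in the same lists and scored 34 to 161. Platr3 scored 40 in mito replicate 2 and 36 and 119 in eG1-1. Platr14 had peaks in eG1-1 only, with scores of 52 and 74. Both eG1-1 lists thus held all 8 of these regions, the mito lists 4 and 7 and the LM lists 6 and 4. Of all lncRNA-end regions the eG1-1 lists held 46.3% and 75.3%, the mito lists 37.2% and 50.0% and the LM lists 36.3% and 29.7%. With 8 regions, no difference between stages can be read from these counts. At 4 of 8 in all 6 lists the group lay above the 15.2% of all lncRNA-end regions, a count too small to be called particular to it.

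**Figure D4:**
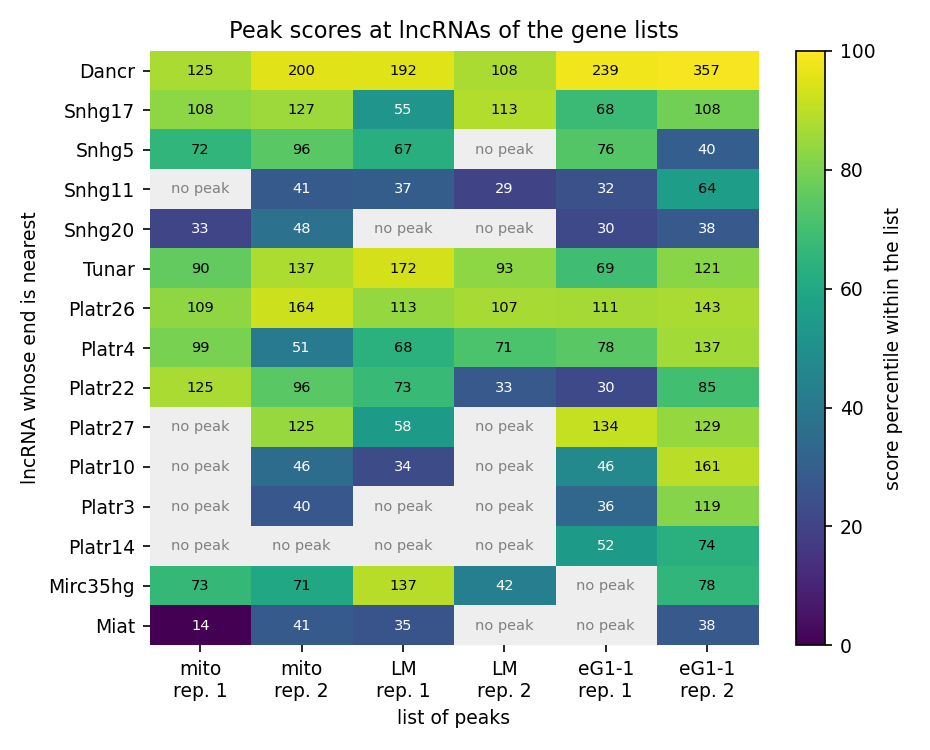
Score (number in each cell) and score percentile within the list (colour, 0 to 100) of the peak at 15 lncRNAs picked from the gene lists, rows, in the 6 lists of peaks, columns. Grey cells are marked no peak. The listed lncRNAs with a region that are not drawn mostly had a peak in 1 list alone, and Bvht had a region held by 4. For Snhg17 only the region at its start is drawn. Dancr, Tunar and Platr26 have a peak in all 6 lists, and Platr14 in the eG1-1 lists alone.

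The remaining lists had few regions. Of 11 microRNA hosts with an end far from coding genes 3 had a region. Mirc35hg on chromosome 6, from 30173903 to 30175042, had scores of 73 and 71 for mito, 137 and 42 for LM and 78 for eG1-1 replicate 2, with no peak in eG1-1 replicate 1, and Mir205hg (44) and Mir100hg (15) had a peak in eG1-1 replicate 2 alone. Of 11 developmental lncRNAs 4 had a region. Miat scored 14 and 41 in mito, 35 in LM replicate 1 and 38 in eG1-1 replicate 2. At Bvht, known for its part in heart cell commitment in the mouse, 1 region scored 43 and 36 in mito, 38 in LM replicate 1 and 47 in eG1-1 replicate 2, and a second had a peak in eG1-1 replicate 2 alone (46), as did Carmn (25). Hand2os1 scored 21 and 46 in eG1-1 and had no peak elsewhere. Of the imprinted lncRNAs only Mirg had a region, at its 3′ end, with a peak in eG1-1 replicate 2 (42). Malat1, a very abundant nuclear lncRNA, had a region 826 bp from its 3′ end with a peak in eG1-1 replicate 2 (27) and another 898 bp from its start with a peak in LM replicate 1 (40). Norad, which binds Pumilio proteins, had a peak in LM replicate 1 (103) and Pvt1 in eG1-1 replicate 2 (29). No region in these 4 lists was held by all 6 lists of peaks. In the order given they had 3, 5, 1 and 4 regions, too few to be set against the 15.2% of all lncRNA-end regions.

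For eG1-1 against mito, both eG1-1 lists, and no mito list, held 97 lncRNA-end regions, or 7.63%, against 8.1% of all regions and 9.6% of other intergenic regions. Both mito lists, and no eG1-1 list, held 19, or 1.49%, against 1.85% of all regions and 1.36% of other intergenic regions. Both shares were near those of all regions. At equal list length the counts were 37 and 45, of the 793 lncRNA-end regions that the cut lists formed. The eG1-1 count was then the lower of them. The same counts over all regions at that length are not given here, so these 2 cannot be set against a share. The highest-ranked region on the eG1-1 side was at the start of C330024D21Rik on chromosome 5, from 67463685 to 67464062, with scores of 123 and 113 in eG1-1 and no peak in mito or LM. Gm30880 (86 and 118), Gm39157 (64 and 115), Gm12923 (87 and 76) and Gm40003 (77 and 98) followed. On the mito side the ranks were lower, with Gm42096 at 59 and 58, Gm31065 at 73 and 87, Gm19723 at 81 and 35 and Gm8273 at 32 and 60. Gm17762, whose region on chromosome 2 from 18026708 to 18028114 lies over the start, had scores of 56 and 73 for mito and 38 for LM replicate 1.

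For LM against mito, both LM lists, and no mito list, held 16 regions, or 1.26%, against 0.918% of all regions and 1.06% of other intergenic regions. Both mito lists, and no LM list, held 55, or 4.33%, against 3.55% of all regions and 3.71% of other intergenic regions. At equal list length the counts were 19 and 28, of 793 regions and without a share over all regions beside them. On the LM side Gm39471 (68 and 64), Gm41290 (51 and 60), Gm31585 (58 and 46), Gm38794 (43 and 45) and Gm41286 (21 and 93) ranked highest. The first 4 of these also had a peak in eG1-1 replicate 2, with scores of 82 to 111. On the mito side Gm52861 ranked highest, with a region on chromosome 6 from 47748300 to 47748569, 634 bp from its 3′ end and 10.1 kb from the nearest coding gene. Its scores were 201 and 413 for mito, and neither LM list called it. Gm39261 (23 and 94), Gm33596 (74 and 55), Gm39083 (39 and 58) and Gm14133 (30 and 82) followed.

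For eG1-1 against LM, both eG1-1 lists, and no LM list, held 134 regions, or 10.5%, against 9.37% of all regions and 11.1% of other intergenic regions. Both LM lists, and no eG1-1 list, held 7, or 0.551%, against 0.458% of all regions and 0.395% of other intergenic regions. At equal length the counts were 40 and 21, of 793 regions and without a share over all regions beside them. Gm52861 also led this side, with 287 and 317 in eG1-1, so that its peak was called in all 4 mito and eG1-1 lists at the 96.0th percentile or higher and in neither LM list. Of the 5 highest-ranked regions on each of these sides, C330024D21Rik, Gm30880 and Gm39157 were shared with the comparison of eG1-1 and mito, and Gm42808 had scores of 103 and 140 for eG1-1 and 60 for mito replicate 1. On the LM side Gm41286, Gm46587 (34 and 48), Gm11627 (50 and 18), Gm40031 (33 and 72) and Gm33575 (36 and 50) ranked highest. Of these, Gm46587 and Gm11627 had peaks in both mito lists and Gm40031 and Gm33575 in mito replicate 2. These comparisons share lists with each other, so their counts are not independent, and 2 lists against 2 cannot go below an exact permutation p of 0.33.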

How the data were processed

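ATAC-seq peak lists of 6 samples were used, 1 list per sample. Per the submitters' processing notes, the tools were bedtools, deepTools 3.5.1, MACS2 2.2.4, Picard, SAMtools 1.10 and STAR 2.7.0e, with the builds mm10 and GRCm38. Not given in the sources used here are their roles, the threshold of peak calling, any shift for Tn5 and the treatment of reads with several matches. By their names in the deposited files, peaks came from separate calls for each sample with fragments of paired reads. The score of each peak is the authors' deposited value, a whole number of at least 13 with an unknown scale, and was used only to rank or filter peaks in 1 list. No read counts came with it, so depth is unknown and no interval is given.

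Gene positions, strands and promoters came from RefSeq tables on GRCm38.p6, the assembly of mm10, with 12408 lncRNA genes on chromosomes 1 to 19 and 21900 protein-coding genes. Regions, distances and shares were computed with Python 3.11.15, numpy 2.4.6 and pandas 2.3.3, and copies with blastn 2.17.0 and Biopython 1.88. The trend of the share of a list's regions was tested by an exact two-sided permutation of the least-squares slope over 90 assignments, with 0.0222 as the smallest possible p. The method was tried on simulated data. Regions named are the 10 highest by mean percentile in all 6 lists, the 5 highest per pairwise count and every lncRNA of 6 gene lists. The members and lists were chosen with earlier results of these data known; motifs, promoter classes, distance bins and the copy search were added after the data were seen. Promoters of chromosome 18, with 44 of the regions, were not used here. The peak names carry 1 code for all replicate 1 lists and another for all replicate 2 lists, and what the code stands for is not stated; deviations of same-numbered lists over regions correlated at 0.0332, 0.0139 and 0.0330.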

Additional observations from a re-analysis of the deposited data

Results flagged for a closer look

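The rule kept to chromosomes 1 to 19, so lncRNA ends on the X chromosome entered no comparison. Of 1271 regions there, 20 lay within 1 kb of a lncRNA end and over 10 kb from coding genes, or 1.57%, and 3 were held by all 6 lists. The mito lists held 11 and 15 of them, those of LM 9 and 5, those of eG1-1 11 and 14. The region at Firre, a lncRNA that helps to organise the X chromosome, scored 42 and 59 in mito and 74 in eG1-1 replicate 1, with no peak in LM. Platr21 scored 56 and 31 in mito and 21 and 95 in eG1-1 at its nearer region. Gm15201 scored 54 and 93 for mito, 53 and 43 for LM, and 167 and 242 for eG1-1.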

How the results depend on the processing

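The alternatives were equal list length, a score of at least 50, windows of 500 bp and 2 kb, distances of 5 and 20 kb from coding genes, peaks that cover at least 50% of the region, and each list left out. The difference between lncRNA ends and other intergenic regions kept a negative slope in each setting, from −4.84 to −2.75 with a list left out, and was −4.12 at a score of at least 50. In every setting both sets were still formed from the lists compared. Entry of regions through single lists thus bears on each of these slopes, and the shared sign is no test of a difference between stages. The slope of the share of a list's regions was 0.00381 at equal list length and −0.0969 to −0.00870 with a list left out. That of the share held was −0.371 to 14.1 with a list left out, the lowest without eG1-1 replicate 2, and 0.221 at equal list length, against 8.60 with all peaks. That of the median percentile was 1.26 with all peaks, 6.35 at equal list length and −1.05 where peaks had to cover 50% of the region, and was 0.456 to 2.06 with a list left out. With a replicate block, labels permuted within replicate number, the exact permutation p was 0.389 for the share of a list, with 0.0556 as the smallest possible. A block cannot change a slope, and leaving out an LM list left the slope of the difference at −3.73 for the reason given above.

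Counts of regions moved more. The settings also change which regions are taken or what counts as held, and the same shares over all regions are not given for them. These counts therefore cannot be read as changes at lncRNA ends. In the order eG1-1 not mito, mito not eG1-1, eG1-1 not LM, LM not eG1-1 and mito not LM, equal list length gave 37, 45, 40, 21 and 28. A score of at least 50 gave 44 for eG1-1 not mito, 67 for eG1-1 not LM, 1 for LM not eG1-1, 3 for LM not mito and 95 in all 6 lists. A 500 bp window gave 12 for mito not eG1-1 and 4 for LM not eG1-1. Coverage of 50% gave 36 for mito not eG1-1, 3 for LM not eG1-1, 6 for LM not mito and 51 in all 6 lists. With a list left out, a group rested on 1 list and the counts were 122 to 416 for eG1-1 not mito, 26 to 114 for mito not eG1-1, 181 to 496 for eG1-1 not LM, 11 to 59 for LM not eG1-1, 24 to 79 for LM not mito, 90 to 213 for mito not LM and 194 to 233 in all lists left. The highest of these came without eG1-1 replicate 1 for both counts on the eG1-1 side, without mito replicate 1 for both on the mito side and without LM replicate 2 for both on the LM side. Values of single named regions moved in 114 cases and stayed in 320, but not every setting could change which lists held a region. The wider window and the shorter distance from coding genes only loosen the rule, so every named region stayed there by construction. With the narrower window or the longer distance, a region could only stay or drop out of the rule. The counts are therefore no measure of how stable single regions were. Depth is unknown, so a peak missing from a list limits what can be said of any single region.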

Other observations

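Several lncRNAs outside the gene lists had regions and are named here after their values were seen. Chaserr, which restrains the neighbouring chromatin remodeller gene Chd2 in the mouse, scored 236 and 230 for mito, 135 and 102 for LM, and 158 and 241 for eG1-1. Dubr scored 55 and 125 for mito, 58 and 50 for LM, and 112 and 115 for eG1-1, and Celrr scored 86 and 94, 135 and 98, and 163 and 185 in the same order, so that all 6 lists held these 3. Trp53cor1, a lncRNA induced by p53, scored 54 and 89 in mito, 32 in LM replicate 1 and 63 in eG1-1 replicate 2.

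AY036118 on chromosome 17, from 39847472 to 39848634, scored 1051 and 802 for mito, 637 and 257 for LM, and 149 and 66 for eG1-1. The region overlaps the pseudogene Rn18s-rs5, a copy related to ribosomal RNA, and the placement of reads from ribosomal repeats was not tested.

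Of the 1271 regions 11 overlapped a tRNA gene, and 7 of these were held by all 6 lists, against 193 of all 1271. This was not tested. The region at 4930555B11Rik, which overlaps 2 tRNA genes and lies between a head-to-head pair with BB557941, scored 222 and 153 for mito, 107 and 105 for LM, and 156 and 182 for eG1-1.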
